A study of Mus musculus with 3 samples.

Results

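The regions described here carried an accessibility peak in the sciATACv2 library of mouse whole brain and in neither of the libraries named sciATACv1 and sciATACv3 (v1, v2 and v3 below). They were chosen by the peak calls of all 3 lists: they were found by merging the peaks of the 3 lists wherever peaks shared at least 1 bp, and by keeping the merged regions met by a v2 peak and by no v1 or v3 peak. Of 825954 merged regions, 215827 (26.1%, 95% interval 26.0 to 26.2) were of this kind, each made of 1 v2 peak, and they took 25.4% of the 850991 v2 peaks. The v1 and v3 lists were shorter, with 622754 and 512023 peaks. Regions listed by v1 alone numbered 40385 (6.48% of v1 peaks) and by v3 alone 55953 (10.9% of v3 peaks). Counts set side by side below therefore start from lists of unequal length. The 3 libraries are single-cell combinatorial indexed ATAC-seq of whole brain from C57BL6 mice, prepared on a nanowell chip, with 1 library per version and no treatment, genotype or time point between them. The sources used here do not say what differs between the versions, how many animals were used, of which sex and age, or how deeply each library was sequenced. Each library is therefore a sample of 1: the values below describe these lists, no test between versions was possible, and all intervals are exact Clopper-Pearson intervals that cover counting error only. Absence from a list means that no peak was called there and does not show that the chromatin was closed.

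ATAC-seq reads chromatin through the transposase Tn5, which inserts adapters where DNA is free of nucleosomes, and a peak is a place where insertions pile up. Promoters rich in CpG dinucleotides, which include those of most housekeeping genes, are open in nearly all cell types. Promoters poor in CpG more often belong to genes of 1 tissue, frequently carry a TATA box, and open in the cells that use them. In brain, a bulk peak call also depends on how many of the nuclei share an open site, so sites of rare cells stand low, and fewer open cells cannot be told apart from weaker opening per cell.

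The transcription starts that fell in regions listed by v2 alone included those of red blood cell, muscle and skin genes and of some brain genes named below. Shown are 6 promoters of genes from outside the brain lists. The first 5 belong to the comparison of starts below, and the sixth, Lce1a1, comes from a family picked after its values were seen. Each runs 5′ to 3′ along its gene from 250 bases before the RefSeq start to 50 after it (GRCm38.p6, the same build as mm10). Capitals mark the TATA box TATAAA, the CCAAT box, which has the letters CCAAT, and the GC box GGGCGG, each read on either strand, so their reverse complements are capitalised too. The last is the promoter of the housekeeping gene Pgk1, which lay in a region found in all 3 lists and is set beside them for its many CpGs.
Hbb-bs, chr7:103827879-103828178, minus strand: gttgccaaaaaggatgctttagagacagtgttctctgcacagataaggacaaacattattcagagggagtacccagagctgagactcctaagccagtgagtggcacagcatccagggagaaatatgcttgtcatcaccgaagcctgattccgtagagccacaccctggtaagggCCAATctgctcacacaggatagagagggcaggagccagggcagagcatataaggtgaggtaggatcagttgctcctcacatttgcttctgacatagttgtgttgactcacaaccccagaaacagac
Hbb-bt, chr7:103813874-103814173, minus strand: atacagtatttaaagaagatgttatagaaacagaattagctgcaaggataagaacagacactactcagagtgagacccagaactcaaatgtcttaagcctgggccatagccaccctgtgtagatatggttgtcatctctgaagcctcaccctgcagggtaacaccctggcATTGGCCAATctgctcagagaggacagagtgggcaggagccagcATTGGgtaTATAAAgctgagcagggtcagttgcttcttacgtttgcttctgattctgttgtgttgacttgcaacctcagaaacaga
Alas2, chrX:150547167-150547466, plus strand: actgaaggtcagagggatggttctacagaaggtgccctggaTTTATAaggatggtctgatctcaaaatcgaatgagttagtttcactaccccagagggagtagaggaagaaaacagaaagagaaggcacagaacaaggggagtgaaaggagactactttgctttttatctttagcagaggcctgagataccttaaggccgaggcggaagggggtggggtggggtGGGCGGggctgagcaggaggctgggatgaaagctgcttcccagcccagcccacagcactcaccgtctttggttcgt
Gata1, chrX:7967861-7968160, minus strand: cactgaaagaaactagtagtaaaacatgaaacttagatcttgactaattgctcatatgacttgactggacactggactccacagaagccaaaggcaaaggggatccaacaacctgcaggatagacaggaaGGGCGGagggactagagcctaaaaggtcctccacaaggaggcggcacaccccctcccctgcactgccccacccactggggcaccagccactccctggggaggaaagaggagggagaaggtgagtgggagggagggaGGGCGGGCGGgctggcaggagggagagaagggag
Acta1, chr8:123894726-123895025, minus strand: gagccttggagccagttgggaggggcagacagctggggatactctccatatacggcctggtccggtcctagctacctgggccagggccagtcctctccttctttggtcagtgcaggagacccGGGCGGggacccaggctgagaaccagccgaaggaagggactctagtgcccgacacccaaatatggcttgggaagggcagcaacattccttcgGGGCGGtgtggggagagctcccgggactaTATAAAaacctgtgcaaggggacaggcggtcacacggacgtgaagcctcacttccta
Lce1a1, chr3:92648258-92648557, minus strand: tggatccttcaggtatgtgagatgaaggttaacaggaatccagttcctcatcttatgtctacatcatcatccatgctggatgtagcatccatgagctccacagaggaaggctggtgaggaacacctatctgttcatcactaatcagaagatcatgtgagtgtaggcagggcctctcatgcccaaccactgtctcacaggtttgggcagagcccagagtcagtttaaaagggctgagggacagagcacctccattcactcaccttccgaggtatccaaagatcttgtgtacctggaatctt
Pgk1, chrX:106186850-106187149, plus strand: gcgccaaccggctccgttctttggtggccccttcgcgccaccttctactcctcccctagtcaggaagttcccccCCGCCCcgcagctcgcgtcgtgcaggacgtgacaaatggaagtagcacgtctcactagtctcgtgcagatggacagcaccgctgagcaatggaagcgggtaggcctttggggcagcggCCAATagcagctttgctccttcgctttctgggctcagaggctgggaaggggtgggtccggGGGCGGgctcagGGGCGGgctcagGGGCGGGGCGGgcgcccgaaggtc

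The CpG dinucleotides in these 300 bases numbered 2 in Hbb-bs and 1 in Hbb-bt, the adult beta-globin genes. They numbered 6 in Alas2, the erythroid enzyme that starts heme synthesis, and 4 in Gata1, the master transcription factor of the red cell lineage. Acta1, the skeletal muscle actin gene, had 12 and Lce1a1, a gene of the cornified layer of skin, had 1, whereas Pgk1, which encodes a glycolytic kinase, had 24. The Hbb-bs region, chr7:103827735-103828234, had the minimum width of 500 bp, and the nearest v1 and v3 peaks lay 12230 and 6410 bp away. The Alas2 region was 783 bp wide and stood 17270 bp from the nearest v1 peak and 5423 bp from the nearest v3 peak, while the Gata1 region stood 18797 and 9801 bp away. Acta1 was a closer case, with a v1 peak only 67 bp from its 698 bp region. The promoters of Hbb-bs and Hbb-bt share 226 identical bases (72.7% of 311 alignment columns). Whether reads of these paralogs were placed at the right copy was not tested.

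Starts of genes from lists of other tissues were listed by v2 alone at a higher share than starts of brain cell type genes. Of 39 genes with a RefSeq promoter in the lists of lymphocyte, erythroid, liver, skeletal muscle and testis genes, 10 had a start in a region listed by v2 alone (25.6%, 13.04 to 42.1). Of 72 genes in the 11 brain cell type lists, 2 did (2.78%, 0.338 to 9.68). The background was 4.42% of all 26794 genes with a promoter and 3.46% of the 17273 protein-coding ones, so the brain lists stood near the background and the other lists above it. None of the 39 genes had a start in a region listed by v1 alone or by v3 alone. Over all 26794 genes only 137 and 219 had such starts, so 39 genes are too few to differ from that background. Another 11 of the 39 had a start in a region found in all 3 lists, and 12 had starts without any peak. Among genes with a peak at a start in any list the shares were 10 of 27 (37.0%, 19.4 to 57.6) and 2 of 67. Of the 72 brain genes, 65 had a start in a region found in all 3 lists, as did all 7 housekeeping genes, while 5 brain genes had no peak at a start. The difference between the groups of lists was not tested, since the lists are small and were chosen with earlier results of these data known.

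The erythroid list gave 4 of its 7 starts: Hbb-bs, Hbb-bt and, on X, Alas2 and Gata1. Around Alas2, in its span with 5 kb on each side, the v1, v2 and v3 lists placed 1, 10 and 1 peaks, and 9 of the 11 regions there were listed by v2 alone. Gata1 had 0, 4 and 1 and Hbb-bs had 0, 1 and 0. Hbb-bt had 1, 3 and 1, and its start region lay nearer to the other lists, 737 bp from a v1 peak and 718 bp from a v3 peak. Among lymphocyte genes, Cd8a, the co-receptor of cytotoxic T cells, and Lck, the T cell kinase that acts downstream of it, had such starts. In the Cd8a window the lists held 3, 11 and 3 peaks and 7 of 10 regions were listed by v2 alone. Lck has 2 RefSeq promoters, and both lay in such regions, 558 and 1317 bp from the nearest v1 peak. Both promoters of Hnf4a, the hepatocyte transcription factor gene, did as well, 14904 and 11013 bp from the nearest v1 peak and 4032 and 7924 bp from the nearest v3 peak. From the germ cell list came Prm2, a protamine that packs sperm DNA, and Zp3, a glycoprotein of the egg coat. The Zp3 region lay 139 bp from a v1 peak, so it was a near miss, whereas the Prm2 region lay 1888 bp from one.

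The 2 genes of the brain lists were Pvalb and Pcp2. Pvalb encodes the calcium buffer parvalbumin of fast-spiking interneurons, and 1 of its 2 promoters lay in a region listed by v2 alone, 631 bp from the nearest v1 peak and 395 bp from the nearest v3 peak. Its other promoter lay in a region found in all 3 lists. Pcp2, a marker of cerebellar Purkinje cells, has 4 promoters in the table. Of these, 2 lay in 1 region of 500 bp listed by v2 alone, 2567 and 2365 bp from the nearest v1 and v3 peaks, and 2 had no peak. Outside the lists, the starts of the neuropeptide genes Avp and Pomc also lay in regions listed by v2 alone. The Avp region lay 266 and 269 bp from the nearest v1 and v3 peaks, and the Pomc region 1009 and 61 bp.

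Gene families, read by symbol, differed widely at their starts. Of 36 keratin genes, which encode filaments of skin, hair and other epithelia, 6 had a start in a region listed by v2 alone (16.7%, 6.37 to 32.8): Krt7, Krt20, Krt25, Krt26, Krt31 and Krt73. In the window of Krt42 the v1, v2 and v3 lists held 0, 11 and 2 peaks. Solute carriers had 14 of 264 (5.30%, 2.93 to 8.74), an interval that contains the 3.46% of all protein-coding genes. The 14 were Slc10a1, Slc16a8, Slc22a16, Slc22a20, Slc22a6, Slc25a54, Slc29a1, Slc2a7, Slc34a1, Slc34a3, Slc39a5, Slc5a1, Slc6a13 and Slc6a14. Slc22a6 is the organic anion transporter of the kidney and Slc34a1 the phosphate transporter of the kidney. Whether the 14 favour any tissue was not tested. Most receptor genes of the nose had no peak at their start in any list: 874 of 944 olfactory receptor genes and 316 of 321 vomeronasal receptor genes. The olfactory receptors had 16 starts in regions listed by v2 alone (1.69%) and the vomeronasal receptors had 0. Of the 70 olfactory receptor genes with a peak at a start in any list the 16 make 22.9% (13.7 to 34.4), beside 4.45% of all protein-coding genes with such a peak. The other single lists also stood above their background there. Of the same 70 genes, 6 had a start in a region listed by v1 alone and 4 by v3 alone. Among the 13443 protein-coding genes with such a peak, 60 and 87 did. Ribosomal protein genes had 1 of 75, Rpl3l, the muscle form of a large subunit protein, and 70 in regions found in all 3 lists.

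Further families were picked after their values had been seen and support nothing. The late cornified envelope genes of the skin barrier had 10 of 20 starts in regions listed by v2 alone. All 4 genes of the pre-B cell surrogate light chain, Vpreb1, Vpreb2, Vpreb3 and Igll1, had one, as did 4 of 6 gamma crystallins of the eye lens (Cryga, Crygb, Crygd and Cryge). Chemokine receptors had 4 of 14 (Ccr6, Ccr8, Ccr9 and Cxcr2) and keratin-associated proteins 5 of 51. Lce, crystallin and Krtap genes lie in clusters of near copies, where reads may not map to 1 gene alone.

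**Figure D1:**
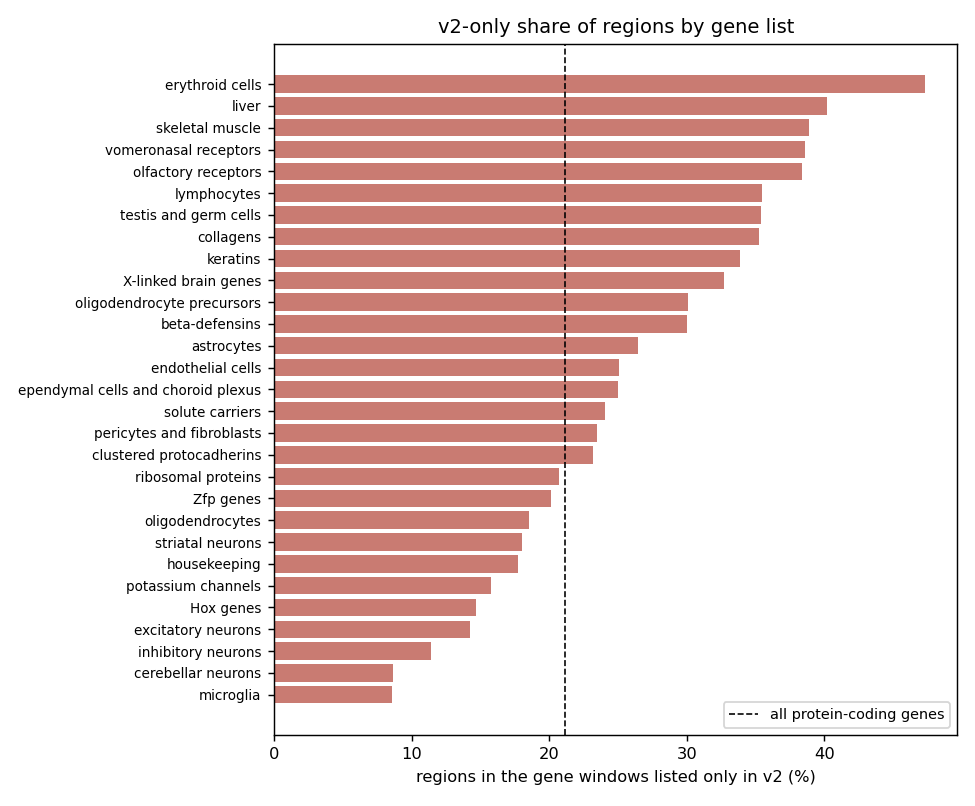
Horizontal bars give, for each gene list or family, the share of merged regions in its gene windows (span with 5 kb on each side) that were listed by v2 alone, in percent. The dashed line is the 21.2% of all protein-coding gene windows. The erythroid list, which includes Alas2 and Gata1 on X, stands at 47.3% and the microglia list at 8.55%.

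Over all starts, the regions listed by v2 alone reached 1259 of 32619 RefSeq promoters (3.86%), which belong to 1184 genes. For 1032 of these genes no other list had a peak at any start in the table. Outside chromosome 18, for which no starts were used, 1173 of 207336 regions held a start (0.566%, 0.534 to 0.599), against 5.18% of the regions found in all 3 lists, 0.350% of those listed by v1 alone and 0.401% of those listed by v3 alone. By gene type the shares were 6.16% of 9520 long noncoding RNA genes and 3.46% of protein-coding genes. Noncoding promoters made up 50.6% of the promoters reached by v2 alone and 26.9% of those in regions found in all 3 lists. The 1173 regions with a start had a median width of 500 bp, and their median distance to the nearest v1 or v3 peak was 900 bp. The widest of them that held a protein-coding start spanned 2632 bp at Trex2, a DNA exonuclease gene on X. The rest of the widest 10 lay at Pard3, Csad, Gm45521, Tmem184a, Zap70, Slc22a6, Dpep3, Vrtn and Foxn1. That of Zap70, a T cell kinase gene, spanned 2016 bp, and that of Foxn1, the transcription factor gene of the thymus, 1874 bp. Of the 3 Zap70 promoters only 1 was reached by v2 alone, and the others lay in regions met by another list.

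Promoters reached by v2 alone were poor in CpG. Among protein-coding starts, the median number of CpG dinucleotides was 4 where the region was listed by v2 alone, 19 where it was found in all 3 lists and 2 where no list had a peak. The median G+C content was 52.7%, 60.7% and 43.7% in the same order. Starts in regions listed by v1 alone and by v3 alone had a median of 3 CpGs each, and starts in regions of each pair of lists had a median of 4. Low CpG was thus common to starts short of all 3 lists. Of the starts of any gene type that lay in some region, 15.8% (14.4 to 17.3) were listed by v2 alone where the promoter had 0 to 2 CpGs. The share was 10.8% at 3 to 5 CpGs, 8.38% at 6 to 9, 3.66% at 10 to 14, 1.07% at 15 to 19 and 0.231% (0.141 to 0.357) at 20 or more. It fell at each step, and so did the shares of v1 alone, from 2.27% to 0.0116%, and of v3 alone, from 3.29% to 0%, except that v1 alone had 0% at 15 to 19 CpGs.

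**Figure D2:**
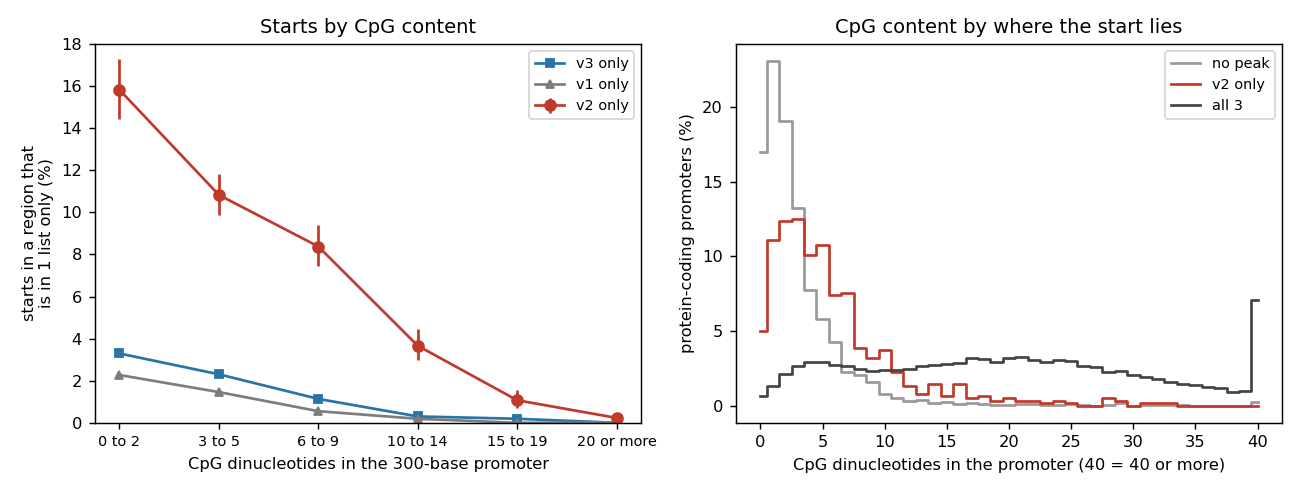
Left, share in percent of starts lying in some region that were listed by a single list, by the number of CpG dinucleotides in the 300 base promoter, with 95% intervals for v2. Right, distribution of CpG counts of protein-coding promoters by where the start lies. The v2 curve falls from 15.8% at 0 to 2 CpGs to 0.231% at 20 or more.

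Core promoter letters also differed in share between these groups. TATAAA on the gene's strand, beginning 40 to 20 bases before the start, was present in 7.23% (5.33 to 9.56) of the 622 protein-coding promoters reached by v2 alone. It was present in 1.38% of promoters in regions found in all 3 lists, 5.43% of those without a peak and 2.56% of all 21044 protein-coding promoters. GGGCGG on either strand, the GC box bound by Sp1, stood in 21.4% (18.2 to 24.8), against 61.3%, 5.96% and 46.7%. CAGCTG, an E-box that reads the same on both strands, stood in 22.2% (18.98 to 25.7), against 15.9%, 13.4% and 15.7%. CCAAT on either strand stood in 36.5% (32.7 to 40.4), near the 37.1% of regions found in all 3 lists and below the 43.9% of promoters without a peak. The sets nearest in calls were alike in some of these letters and not in others. TATAAA at that place stood in 6.56% of the 61 protein-coding promoters reached by v1 alone and 5.49% of the 91 reached by v3 alone. CAGCTG stood in 14.8% of those reached by v1 alone and 23.1% of those reached by v3 alone. In regions of v1 and v2 and of v2 and v3 it stood in 20.3% and 22.8%. GGGCGG stood in 19.4% and 19.2% of the latter pair of sets. It was rarer in promoters reached by v1 alone (6.56%, 1.82 to 15.9) and by v3 alone (12.1%, 6.19 to 20.6). CCAAT stood in 49.2% (36.1 to 62.3) and 36.3% of these. A match of letters is a description and no sign of a bound factor. In the promoters printed above, TATAAA is capitalised close to the start in Hbb-bt and Acta1, whereas Hbb-bs, Gata1, Lce1a1 and Pgk1 hold none.

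The regions listed by v2 alone lay close to protein-coding starts less often than those found in all 3 lists. Within 1 kb of a start lay 0.695% of the regions listed by v2 alone, against 3.99% of the regions found in all 3 lists, 0.689% of v1 alone and 0.789% of v3 alone. In the bin from 500 bp upstream to the start, 1.47 of every 1000 regions listed by v2 alone had their midpoint, against 12.2 of every 1000 found in all 3 lists. In the first 500 bp downstream the values were 2.45 and 19.1, beside 1.18 for v1 alone and 1.09 for v3 alone. For v2 alone that bin held 508 regions, against 280 to 348 in the other bins within 1 kb. The profiles of v2 alone and of all 3 lists also changed in a step near 5 kb from the start. The 500 bp bins on either side of 5 kb held 727 and 437 regions listed by v2 alone upstream and 931 and 622 downstream, with the lower count on the side of the start. For regions found in all 3 lists the corresponding counts were 751 and 573 upstream and 966 and 681 downstream. The source of the step was not tested, and low counts within 5 kb of a start should be read with it.

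**Figure D3:**
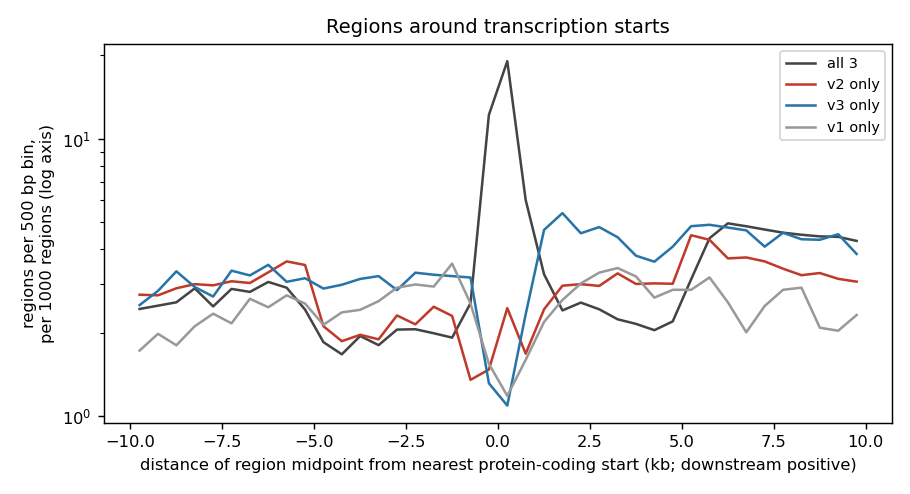
Regions per 500 bp bin, per 1000 regions of each kind (log axis), by distance of the region midpoint from the nearest protein-coding start in kb, downstream positive. The regions found in all 3 lists peak at the start with 19.1 per 1000 in the first bin downstream, where those listed by v2 alone have 2.45.

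A smaller share of the regions listed by v2 alone than of the shared ones lay inside genes. A midpoint in an annotated gene span was found for 52.3% (52.1 to 52.5) of them, when gene spans cover 48.3% of the chromosome spans. The v2 peaks met by another list had 68.8%, regions listed by v1 alone 45.4% and regions listed by v3 alone 62.5%. At the single width of 500 bp the share was 51.8% for v2 alone against 66.7% for v2 peaks met by another list, so the difference was present at equal width. The share depended on how near another list had a peak. It was 64.4% (64.0 to 64.9) where a v1 or v3 peak lay within 250 bp, 59.7% up to 1 kb, 49.6% from 1 to 2.5 kb, 34.3% from 2.5 to 10 kb and 21.6% (20.7 to 22.6) beyond 10 kb. Regions listed by v1 alone fell from 61.8% to 27.3% and those listed by v3 alone from 72.1% to 28.5% over the same distances. Outside genes lay 102955 regions listed by v2 alone, with a median of 21532 bp to the nearest gene, and 14.4% of these were more than 100 kb from any gene.

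**Figure D4:**
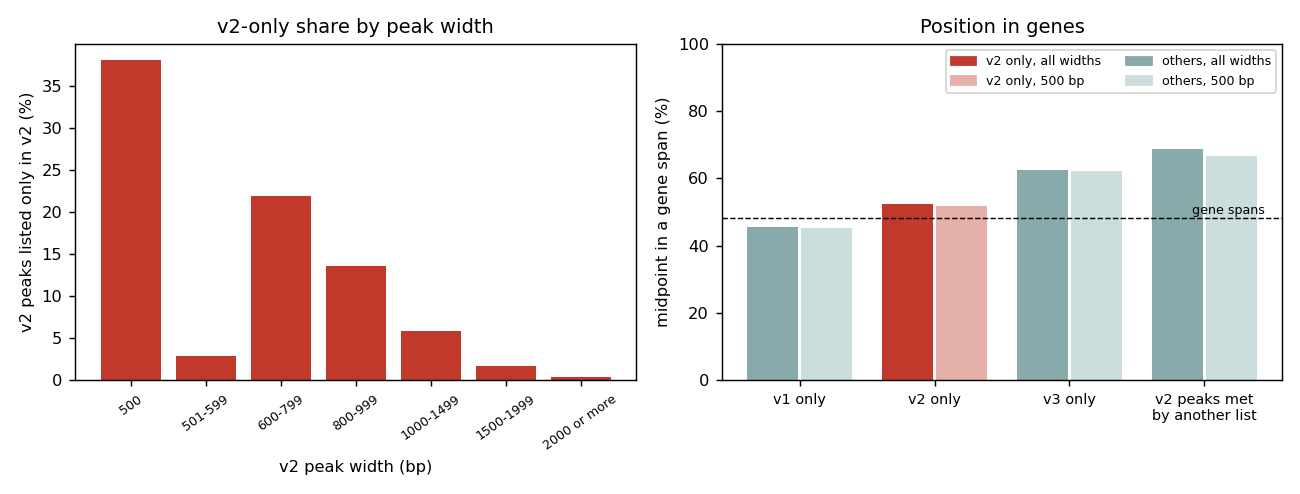
Left, share of v2 peaks listed by v2 alone by peak width in bp. Right, share of regions with their midpoint in a gene, for all widths and for 500 bp alone, with the 48.3% covered by gene spans as a dashed line. The v2 share falls from 38.1% at 500 bp to 0.346% at 2000 bp or more, and 52.3% of the regions listed by v2 alone lie in genes against 68.8% of the v2 peaks met by another list.

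At the level of whole genes, 77% of 21627 protein-coding windows held at least 1 region listed by v2 alone, with a median of 2. The count followed gene length, and the longest genes led. Dmd, the dystrophin gene on X, held 290 in its span, and the v1, v2 and v3 lists had 329, 625 and 264 peaks in its window. Cntnap2, a neurexin-family adhesion gene of axons, held 257, and its lists had 779, 1038 and 534 peaks. Ctnna3, which encodes a catenin of cell junctions, and Macrod2, a macrodomain hydrolase gene, held 203 each. Pcdh15, a protocadherin of inner ear hair cells, held 196, and Cntn5, a contactin, and Gpc5, a glypican, held 189 each. Dcc, the netrin receptor gene, held 176, Sgcd, a sarcoglycan that binds the dystrophin complex, 169, and Ptprt, a receptor phosphatase gene, 167. As shares of the merged regions in the windows, these 10 genes ran from 22.5% for Macrod2 to 44.0% for Sgcd, beside a median of 18.8% over the 4217 genes with at least 30 merged regions. Long genes are thus not alike, with Cntnap2 at 24.2% and Dmd at 41.6%, both above that median.

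Genes in which v2 alone supplied at least 50% of the merged regions numbered 92 of those 4217 (2.18%). The count depended on the rules: it was 6 with no v1 or v3 peak within 1 kb, 27 without 500 bp peaks, 154 when other lists had to cover 50% of a peak, and 630 when 10 regions sufficed. The highest share was 71.4% in Zpbp, a sperm gene for binding to the egg coat, with 9, 35 and 5 peaks in the v1, v2 and v3 lists. Glb1, the lysosomal beta-galactosidase gene, had 69.8% with 12, 44 and 11 peaks. Wdpcp, a gene of cilia and planar cell polarity, had 92 of 134 regions (68.7%, 60.1 to 76.4), with 35, 133 and 26 peaks. In all 3 of these windows the v2 list had more peaks than the other lists together, which follows largely from choosing windows by that share. Gpr149, an orphan receptor gene, had 64.5%, and Cftr, the epithelial chloride channel gene, had 62.5% with 23, 56 and 8 peaks. Wnt2, a secreted signalling gene that lies near Cftr on chromosome 6, had 62.5%, as did Ccdc180. Hspbap1 had 61.3% and Myh11, the smooth muscle myosin gene, 61.2% with 20, 52 and 14 peaks. These genes are the extremes of the 4217, so their shares overstate what a repeat would show.

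At the other end, 0 of 127 regions in the window of Cnksr2, a scaffold of the postsynapse on X, were listed by v2 alone, where the lists had 142, 146 and 153 peaks. Qk, an RNA-binding protein gene of myelinating glia, had 0 of 71. Cplane1, a cilium gene, had 0 of 67, and Btbd7 and Ntn4, a netrin gene, had 0 of 53 each. In these genes each region with a v2 peak was met by v1 or v3. Conversely, 377 of the 19883 genes with at least 1 merged region had no other region in their window than those listed by v2 alone. Of these 377 genes, 47 were on X (12.5%). The share of all genes on X and the matching counts for v1 alone and v3 alone were not taken. In the 377 windows the largest counts were 7 in Fmr1nb, Nudt16l2 and Sirpb1a, and 6 in Cd177, a neutrophil surface gene, Ly6g6g and Tdpoz8. Next came 5 in Gm6592, Morc2b, Odf4, a sperm tail gene, and Ssxb5. Sirpb1a, Tdpoz8 and Ssxb5 belong to clusters of near copies, where counts are uncertain.

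In gene windows too, the lists of other tissues stood above the brain lists. In the 105 windows of the brain lists 720 of 4014 regions were listed by v2 alone (17.9%), and in the 50 windows of the 5 other lists 203 of 520 (39.0%), beside 21.2% over all protein-coding windows. The erythroid list stood at 47.3%, liver at 40.2%, skeletal muscle at 38.9%, lymphocytes at 35.5% and testis at 35.4%. The erythroid value includes Alas2 (9 of 11 regions) and Gata1 (4 of 5) on X, the chromosome with the highest share, described below. It was not taken without them. Ryr1, the calcium release channel of muscle, had 31 of 68, and Stra8, a gene of meiotic entry, had 11 of 18. Brain lists ran from 8.55% for microglia and 8.63% for cerebellar neurons to 26.5% for astrocytes and 30.1% for oligodendrocyte precursors. P2ry12, the purinergic receptor gene of microglia, had 5 of 41, and Etv1, a transcription factor gene of cerebellar granule cells, 5 of 58. Erbb4, the neuregulin receptor gene of interneurons, had 46 of 493 and Foxp1, a striatal transcription factor gene, 55 of 339. Vcan, a proteoglycan gene of oligodendrocyte precursors, had 24 of 58, and Gli3, a hedgehog pathway factor gene of astrocytes, 54 of 155. Endothelial genes stood at 25.1%, with Tek, the angiopoietin receptor gene, at 17 of 43. None of the 27 genes of the brain lists with at least 30 regions reached 50%, and neither did any of the 3 such genes of the other lists.

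Among families, olfactory receptors stood at 38.4%, vomeronasal receptors at 38.6%, keratins at 33.9% and beta-defensins at 24 of 80 regions. Collagens, the matrix genes, stood at 35.3%, with Col25a1 at 72 of 220 and Col23a1 at 55 of 140. Hox genes had 14.7% and potassium channel genes 15.7%, with Kcnip4, a channel-binding calcium sensor, at 81 of 629. Zinc finger genes named Zfp had 20.1%, solute carriers 24.1%, and clustered protocadherins, whose windows overlap and count the same regions, 23.2%. The ribosomal protein pattern had 20.7%, but it also catches the kinase genes Rps6ka2 (27 of 116) and Rps6ka6 (16 of 23), the genes of that pattern with the most regions listed by v2 alone. Housekeeping genes stood at 17.8%.

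The X chromosome had the highest share of its v2 peaks listed by v2 alone. It was 9941 of 22022 (45.1%, 44.5 to 45.8), while the 19 autosomes ran from 22.5% to 27.3%. Per Mb of chromosome X did not stand out, with 59.2 regions against 57.8 to 98.5 on the autosomes. Regions found in all 3 lists numbered 38.5 per Mb on X and 108 to 147 on the autosomes. The v1 list held 73.3 peaks per Mb on X against 190 to 284, and the v3 list 66.3 against 180 to 242. The share was higher on X at 500 bp (57.6% against 34.2 to 40.7%) and among wider peaks (24.2% against 9.36 to 12.1%). The other lists showed the same side: 14.8% of v1 peaks on X were listed by v1 alone, against 5.19 to 7.71% on autosomes, and 16.7% of v3 peaks by v3 alone, against 9.66 to 13.3%. The median distance from a region listed by v2 alone to the nearest v1 or v3 peak was 2596 bp on X and 705 to 982 bp on the autosomes.

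**Figure D5:**
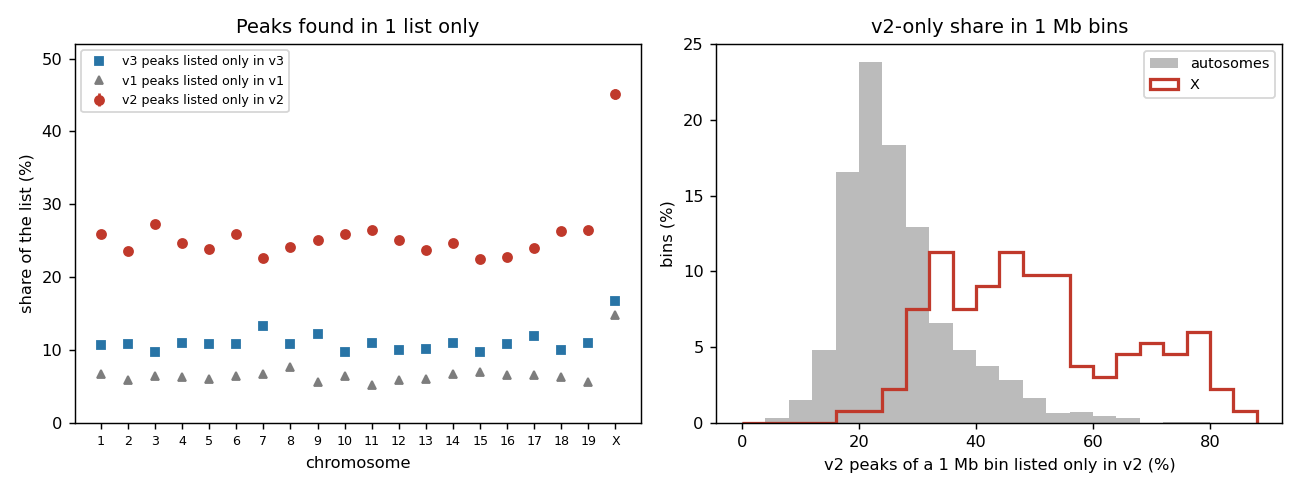
Left, share of each list's peaks that no other list met, per chromosome, with 95% intervals for v2. Right, distribution over 1 Mb bins of the share of v2 peaks listed by v2 alone, autosomes and X. X stands at 45.1% for v2 against 22.5 to 27.3% on the autosomes, and its median bin at 47.8% against 24.6%.

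At starts X did not stand out: 47 of its 1223 promoters (3.84%) had a start in a region listed by v2 alone, beside 3.86% of all promoters. All 12 genes of the X-linked list with a promoter had a start in a region found in all 3 lists. In the windows of all 19 protein-coding genes of that list 32.7% of regions were listed by v2 alone. Of these genes, 3 of the 15 with at least 30 regions reached 50%. These were Il1rapl2, a synaptic adhesion gene (107 of 187), Htr2c, a serotonin receptor gene (25 of 46), and Glra2, a glycine receptor gene (26 of 51). Of all 111 X-linked protein-coding genes with at least 30 regions, 19 reached 50% (17.1%), against 1.78% of such autosomal genes. The neighbouring family member Il1rapl1 had 132 of 558, Frmpd4, a postsynaptic scaffold gene, 149 of 419, and Tenm1, a teneurin adhesion gene, 109 of 264. Il1rapl1 thus stood at 23.7% and Il1rapl2 at 57.2%, beside a median of 32.6% over the 111 X-linked genes.

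In bins of 1 Mb with at least 50 v2 peaks, the share listed by v2 alone had a median of 24.6% on autosomes (2339 bins) and 47.8% on X (133 bins). In 91 autosomal bins it reached the X median. The 3 highest autosomal bins were a gene desert and parts of receptor clusters: 77.7% at chr17:92000001-93000000, which holds no protein-coding gene, and 74.0% and 66.9% at chr2:88000001-89000000 and chr2:86000001-87000000, which hold olfactory receptor genes. The lowest bins lay in single long neuronal genes. Fgf14, a regulator of sodium channels, had 3.77%, Ptprd, a synaptic phosphatase gene, 4.29%, and Dlg2, a postsynaptic scaffold gene, 6.62%. Their bins were full of shared regions, 224 found in all 3 lists in that of Fgf14 and 359 in that of Ptprd, against a median of 137. Across the autosomal bins the share fell as the number of regions found in all 3 lists rose (Spearman's rho -0.72) and as protein-coding coverage rose (-0.53). The plain number of regions listed by v2 alone rose with the number of shared ones (0.27). These are descriptions over neighbouring bins of the same 3 lists, and the share and the shared count have peaks in common.

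Most regions listed by v2 alone stood alone or in short runs among shared ones. Of 143053 runs, in which consecutive merged regions were all listed by v2 alone, 97846 held 1 region, and 45.3% of the regions were single. Runs of at least 5 numbered 2728, with 21.2% of the regions on X and 6.80% of those on autosomes. The longest held 16, at chr3:12973828-13091079 and at chr3:14279621-14347039, both nearest to Ralyl, an RNA-binding protein gene, at 380575 and 97333 bp. A run of 15 filled chr14:31284458-31311316 in Dnah1, a dynein gene of motile cilia and sperm tails, and another covered Sirpb1a. Other runs of 15 lay 270594 bp from Ccdc85a and, on X, among the Btbd35f and Spin2 genes, which are near copies. Runs of 14 lay in Cftr, 748372 bp from Ccdc85a and, on X, 5182 bp from H2al1o.

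The regions were narrow. The minimum width of 500 bp was that of 79.8% of the regions listed by v2 alone and of 33.6% of the v2 peaks met by both other lists. It was that of 60.7% of the v2 peaks met by v1 alone and 68.4% of those met by v3 alone. Narrow width was common to the single lists, with 92.5% of regions listed by v1 alone and 82.0% of those listed by v3 alone. By width, 38.1% of v2 peaks of 500 bp and 0.346% of those of 2000 bp or more were listed by v2 alone. The widest spanned 3875 bp at chr1:75526491-75530365 in Stk11ip, with a v1 peak 138 bp and a v3 peak 115 bp away. The next were 3468 bp in Ahcy, which encodes the hydrolase of S-adenosylhomocysteine, 3118 bp in Efcc1, 3028 bp on X at 18707 bp from Shroom2, and 3006 bp in Pla2g6, a phospholipase gene. The X region stood 6450 bp from the nearest v1 peak, and the other 4 had a v1 or v3 peak within 1 kb.

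Many lay close to a peak of another list. The median distance to the nearest v1 or v3 peak was 856 bp, with 54.5% within 1 kb and 96.4% within 10 kb. Just inside the threshold, 20125 regions (9.32%) had a v1 or v3 peak within 100 bp, and 140 touched one. Just outside it, 11128 v2 peaks shared 1 to 100 bp with another list and were left out. The 500 bp share was 78.5% on the inside and 80.0% on the outside, so peaks on both sides of the threshold were alike in width. Regions listed by v1 alone had a median distance of 836 bp and those listed by v3 alone 454 bp.

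Some microRNA hairpins lay in regions listed by v2 alone. Of 1005 RefSeq hairpins 690 overlapped some region, and 93 of these overlapped a region listed by v2 alone (13.5%, 11.02 to 16.3). Such regions made 26.1% of all merged regions by number, but they were narrow and held only 18.5% of the bases in v2 peaks. No comparison was made at equal width, so no deficit of hairpins is read from these shares. In regions found in all 3 lists lay 49.9% of the 1005, in regions listed by v1 alone 6 and by v3 alone 13. The 93 hairpins give 152 mature names with 147 seeds, the bases 2 to 8 that pair with target messages, and 5 seeds were shared by a pair of names. The mature forms below are shown for a known tissue, including neurons, or for a shared seed, and were picked after their values were seen; they run from 5′ to 3′, with the seed in capitals (RefSeq, GRCm38.p6).
miR-7a-5p, chr13:58392841-58392863, minus strand: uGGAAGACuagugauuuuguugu
miR-218-5p, chr5:48223966-48223986, plus strand: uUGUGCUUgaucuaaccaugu
let-7c-5p, chr16:77599672-77599693, plus strand: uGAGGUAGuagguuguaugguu
let-7f-5p, chrX:151912353-151912374, plus strand: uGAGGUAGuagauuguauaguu
miR-142a-5p, chr11:87756867-87756887, plus strand: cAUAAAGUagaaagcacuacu
miR-142a-3p, chr11:87756903-87756925, plus strand: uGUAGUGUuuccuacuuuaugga
miR-146a-5p, chr11:43374435-43374456, minus strand: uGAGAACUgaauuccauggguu
miR-200a-3p, chr4:156054911-156054932, minus strand: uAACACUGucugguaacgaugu
miR-499-5p, chr2:155622893-155622913, plus strand: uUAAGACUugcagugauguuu
miR-497a-5p, chr11:70234730-70234751, plus strand: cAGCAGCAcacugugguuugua
miR-140-3p, chr8:107551288-107551308, plus strand: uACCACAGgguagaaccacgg
miR-497b, chr11:70234763-70234786, minus strand: cACCACAGugugguuuggacgugg

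The hairpin of miR-7a, which is abundant in neurons and endocrine cells, lay inside the span of Hnrnpk, 1223 and 1294 bp from the nearest v1 and v3 peaks. The hairpin of miR-218, a microRNA of motor neurons, lay inside Slit2, which encodes an axon guidance ligand, 1288 and 690 bp away. Hairpins of microRNAs of neurons, blood and epithelia thus all occur here. The let-7 pair shares the seed GAGGUAG, and miR-140-3p shares ACCACAG with miR-497b. The hairpin of miR-142a, a microRNA of blood cells, lay in a 500 bp region 726 and 708 bp from the nearest v1 and v3 peaks. That of miR-146a, a feedback regulator of innate immune signalling, lay 157 and 213 bp from them. The hairpin of miR-200a, a microRNA of epithelia, lay 1102 and 970 bp away. The hairpin of miR-499 lay in a 705 bp region inside Myh7b, a muscle myosin gene, 1439 and 1325 bp away. The let-7f hairpin on X lay inside the span of Huwe1, 2233 and 793 bp away, and the miR-140 hairpin inside Wwp2, 259 and 634 bp away. The hairpins of let-7c and let-7f have further copies elsewhere in the genome, so a mature name does not stand for 1 locus.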

How the data were processed

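The authors deposited 1 peak list per library, holding peak positions (chromosome, start, end) without a score, count or barcode, so depth per library is unknown and only positions were used. The tools ArchR and MACS2 and the build mm10 are named per the submitters' processing notes; the sources used here name no version, threshold or aligner. Peaks of the 3 lists sharing at least 1 bp were merged on chromosomes 1 to 19 and X, and each merged region was labelled by the lists with a peak in it. Coordinates are 1-based. Gene spans (without strand), promoters and microRNAs came from RefSeq tables of GRCm38.p6. The promoter table holds 79.9% of the protein-coding genes (17273) and was not used for chromosome 18. No genome sequence was used, so G+C, CpG and motifs were read in promoters alone, not in the regions as planned.

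Gene windows were spans with 5 kb on each side. A gene counted as called when at least 50% of at least 30 merged regions in its window were listed by v2 alone. Members and the 18 gene lists and 11 families were chosen with earlier results of these data known, and 5 families after their values were seen. Named genes were those with the most regions (10, and 5 on X), the highest (10) and lowest (5) shares, the most regions where no other kind was present (10), the leading 2 of each list or family, not all of which are reported here, the 5 widest regions and the longest runs, here those of at least 14 regions so that ties are kept. Genes named at starts were the members of lists and families found there. The exceptions, picked after their values were seen, were Avp, Pomc and those of the 10 widest regions with a start, such as Trex2, Zap70 and Foxn1. The merging was tested on simulated data. Shares have exact Clopper-Pearson 95% intervals. With 1 library per version no test was run. Python 3.11.15, NumPy 2.4.6, pandas 2.3.3, SciPy 1.17.1, Biopython 1.88 and Matplotlib 3.10.9 were used.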

Additional observations from a re-analysis of the deposited data

How the results depend on the processing

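The count of 215827 regions became 98107 when no v1 or v3 peak was allowed within 1 kb and 108494 when peaks of 500 bp were left out of all lists, and 263747 with the 50% rule described next. As a share of v2 peaks, 25.4% became 11.5% and 27.2% under these 2 rules, and 31.0% when a v2 peak was kept unless 1 other list covered at least 50% of it. The share with the midpoint in a gene, 52.3%, became 54.5% with the 50% rule, 59.1% without 500 bp peaks, 43.7% for protein-coding genes alone, and 41.2% with the 1 kb rule, which is below the 48.3% that gene spans cover. On X the share of v2 peaks, 45.1%, became 49.6% with the 50% rule, 32.2% with the 1 kb rule and 41.3% without 500 bp peaks, while the highest autosome became 32.8%, 13.5% and 30.4%, below X each time. The 1259 promoters became 587 with the 1 kb rule, 1858 with the 50% rule and 1254 without 500 bp peaks, alternatives chosen after seeing the data. The 92 called genes became 154 with the 50% rule, 6 with the 1 kb rule, 27 without 500 bp peaks and 630 when 10 merged regions sufficed, of 11224 genes tested. The 1 kb rule removes regions by its construction, and the cause of the other changes was not tested. With 20 kb flanks 124 genes were called and with spans alone 80. Merging touching peaks too, also chosen after seeing the data, gave 215687 regions. No paired analysis was possible because each version has 1 library. Unknown depth limits each statement on absence from a list.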
